A study of Mus musculus with 4 samples.

Results

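The interferon regulatory factors (IRFs) are described here by 8 genes, Irf1, Irf2, Irf3, Irf4, Irf5, Irf7, Irf8 and Irf9, out of 53647 genes in the count tables. They were chosen by family membership, with earlier results of these data known, and some genes of the family are not reported. They were measured by RNA sequencing in 4T1, a mouse mammary carcinoma cell line that the labels give as wild type. Mock cells received mRNA encoding EGFP, and uniSTING cells received mRNA for uniSTING, a construct designed to mimic active STING, the adaptor that links DNA sensing to interferon. Each group held 2 libraries, numbered as preparations in the labels and called replicates here. Both groups thus took up delivered mRNA, by a transfection reagent or lipid nanoparticles, and the labels do not say which carrier was used for which library or give a dose or a time. There was no untreated group, so levels in Mock are those of cells that had received EGFP mRNA.

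Total counts were between 17502694 and 25071840 per library. The variance between the libraries of a group was 1.47 (Mock) and 1.51 (uniSTING) times that of counting noise over genes with at least 50 counts. The labels do not say that preparations were separate cultures, so p-values rest on the spread among 2 libraries a group, and that spread may be purely technical. All 8 epithelial marker genes were detected, 5 of them higher and 2 lower in uniSTING, with summed levels of 3956 to 4187 CPM per library (CPM is the count scaled by library size). Some transcripts of other cell types differed between replicate numbers and others did not. The macrophage and neutrophil gene Lyz2 had 155 and 290 counts in the Mock and uniSTING replicate 1 libraries and 0 in both replicate 2 libraries. The myeloid gene Cd14 had 98 and 173 counts in Mock replicates 1 and 2 and 160 and 216 in uniSTING replicates 1 and 2, and Csf1r had 21 to 28 counts per library. The summed level of 8 myeloid markers was 15.9 and 8.82 CPM in Mock replicates 1 and 2 and 25.9 and 9.80 CPM in uniSTING replicates 1 and 2. Itgam was at 0 counts in all 4 libraries. The sum of 8 lymphoid markers was 0.681 and 0 CPM in Mock replicates 1 and 2 and 1.28 and 0.0402 CPM in uniSTING. In the same order, summed fibroblast markers were 10.4, 7.92, 12.1 and 9.60 CPM, and summed endothelial markers 1.87, 0.226, 1.23 and 0.321 CPM. Each of these sums, the myeloid one included, was higher in replicate 1 than in replicate 2 of the same group.

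IRFs are transcription factors that share an N-terminal DNA-binding domain with a cluster of conserved tryptophans, which recognises GAAA repeats in interferon-stimulated response elements (ISREs). IRF3 and IRF7 are held in the cytoplasm until kinases such as TBK1, which STING recruits, phosphorylate them, and they then turn on interferon genes. Secreted type I interferon acts through its receptor to assemble ISGF3, a complex of STAT proteins with IRF9, which binds ISREs of many genes, Irf7 among them. IRF1 is a short-lived activator induced by interferon gamma and NF-kB, IRF2 competes with it for the same sites, and IRF4, IRF5 and IRF8 are best known from lymphoid and myeloid cells. A transcript level does not report phosphorylation, nuclear entry or protein amount.

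Irf7 and Irf9 transcripts rose in uniSTING, Irf7 by 4.35-fold and Irf9 by 2.19-fold, while Irf1 and Irf3, the most abundant members, did not pass the test. Irf8 rose 1.22-fold and Irf2 fell 1.16-fold, both near the threshold and both lost in several alternative analyses. Irf5 did not pass, and Irf4 was too low to be tested. Of the 7 members tested, 3 were higher and 1 was lower at the threshold of 0.05 (quasi-likelihood test of edgeR, Benjamini-Hochberg adjustment over 12972 genes). In the same test 24.9% of all genes were higher and 25.4% were lower, 50.2% in either direction. As the RNA was measured in bulk, more cells with a transcript and more of it per cell cannot be told apart. The share of members called in either direction, 4 of 7, is close to that of genes at large, and with 7 genes the split by direction is not read further. At least 2-fold rises were found for 2 of the 7 members and for 2.00% of all genes tested.

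**Figure D1:**
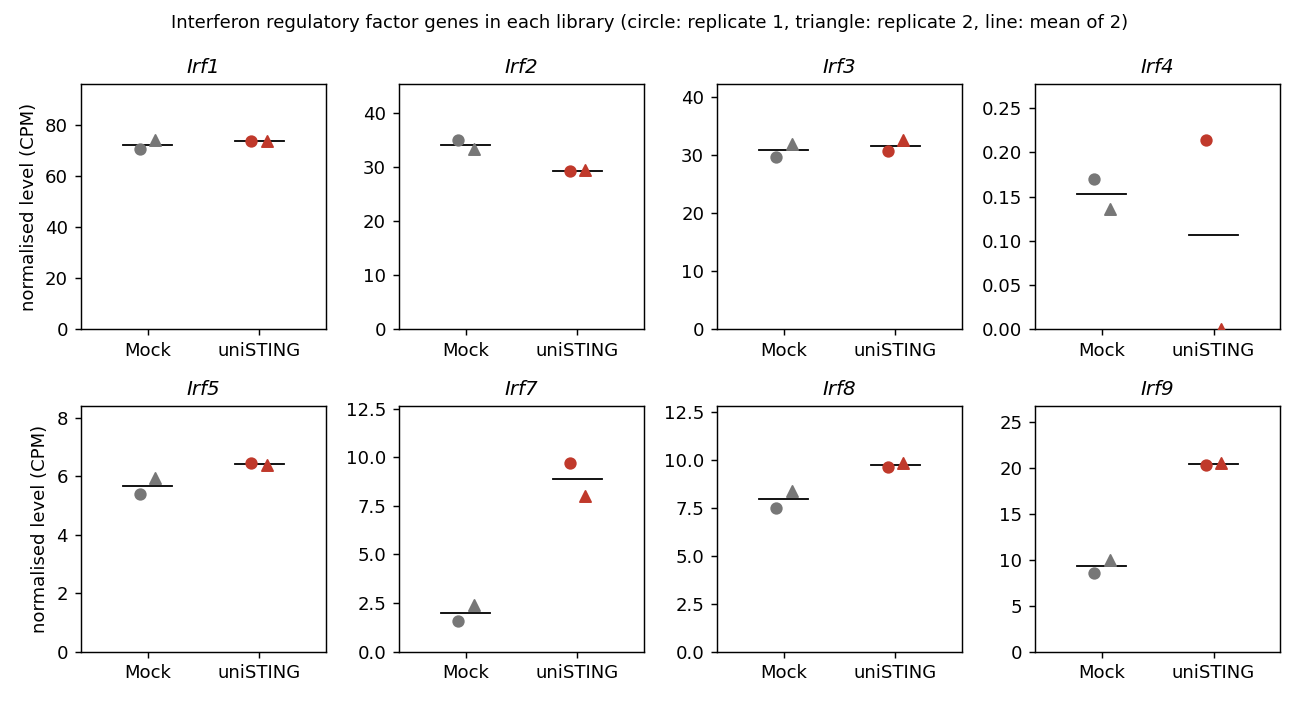
Normalised level (CPM) of each of the 8 genes, with 1 panel per gene and its own axis from 0. Circles are replicate 1, triangles replicate 2 and lines the mean of the 2 libraries. Irf7 and Irf9 show a wide gap between Mock and uniSTING, whereas the points of Irf1 and Irf3 overlap.

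Irf7 is the family member that amplifies interferon production once it has been induced. Its gene (ENSMUSG00000025498, GRCm39 chromosome 7, 140842619 to 140846394, minus strand) was covered by 28 and 53 counts in Mock replicates 1 and 2, and by 182 and 199 counts in uniSTING replicates 1 and 2. These are 1.59 and 2.40 CPM against 9.71 and 7.99 CPM. Both uniSTING libraries lay above both Mock libraries, and the spread within either group was small beside the gap between them. The group values were 1.99 ± 0.573 and 8.85 ± 1.22 CPM (SD, n = 2 libraries per group). The log2 fold change was 2.12 (SE 0.20, 95% interval 1.68 to 2.56, edgeR adjusted p = 6.78e-06), which ranked 47 from the top of 12972 tested genes. The step was 2.61 on the log2 scale between the replicate 1 libraries and 1.74 between the replicate 2 libraries. Lyz2 had no count in the replicate 2 libraries, and Cd14 was present in all 4. The part of transcripts from myeloid or other cell types in the Irf7 values was not tested.

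Irf9 encodes the DNA-binding subunit of ISGF3. Its gene (ENSMUSG00000002325, chromosome 14, 55841028 to 55847487, plus strand) received 151 and 222 counts in the Mock libraries, and 382 and 513 counts in the uniSTING libraries, or 8.57 and 10.0 CPM against 20.4 and 20.6 CPM. The groups did not overlap, as was the case for 75.1% of all genes tested, and the uniSTING libraries were closer to each other than the Mock libraries were. The log2 fold change was 1.13 (SE 0.09, 95% interval 0.93 to 1.33, edgeR adjusted p = 2.15e-06), at rank 244 of the 12972 genes. It was 1.25 between the replicate 1 libraries and 1.04 between the replicate 2 libraries.

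Stat2, which encodes a STAT partner of IRF9, rose as well. It measured 17.3 ± 1.82 CPM in Mock and 24.0 ± 0.268 CPM in uniSTING (SD over 2 libraries; log2 fold change 0.48, SE 0.08, edgeR adjusted p = 6.17e-04). Per length, as TPM (counts over exon length, scaled to the same total in each library), the ratio of Irf9 to Stat2 was 0.508 and 0.692 in Mock, and 0.942 and 0.938 in uniSTING. The uniSTING libraries lay above the Mock libraries in this ratio. The ratio is a description and was not tested.

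Irf1, the interferon gamma-induced activator (chromosome 11, 53660841 to 53669200), was the most abundant member per length and did not pass the test. Its levels were 70.5 and 73.9 CPM in Mock, against 73.6 and 73.6 CPM in uniSTING, from 1242 to 1833 counts. The uniSTING values lay between the Mock values. The log2 fold change was 0.03 with a 95% interval of -0.06 to 0.11 (edgeR adjusted p = 0.613), which leaves room for a change of up to 1.08-fold upward. Over 12 alternative analyses it ran from -0.01 to 0.06, on both sides of 0.

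Irf2, the competitor of IRF1 (chromosome 8, 47192767 to 47300493), had 34.9 and 33.2 CPM in Mock and 29.2 and 29.4 CPM in uniSTING. Both uniSTING libraries were below both Mock libraries. The log2 fold change was -0.22 (SE 0.07, edgeR adjusted p = 0.0191). Irf2 is the longest member by exons, at 7396 bases. With the trend of fold change on exon length removed over all genes, the value was -0.10 and the call was lost (adjusted p = 0.228), as it was when DESeq2 was used (adjusted p = 0.0610) or Mock replicate 1 was left out (adjusted p = 0.117). The ratio of Irf1 to Irf2 in TPM was 3.76 and 4.14 in Mock and 4.69 and 4.67 in uniSTING, higher in both uniSTING libraries than in either Mock library.

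Irf3, the factor that TBK1 phosphorylates downstream of STING (chromosome 7, 44647072 to 44652272), had 29.6 and 31.9 CPM in Mock and 30.6 and 32.5 CPM in uniSTING. The 4 values interleave. A log2 fold change of 0.04 was fitted (95% interval -0.12 to 0.19, edgeR adjusted p = 0.706). Its sign changed over the alternatives, from -0.02 to 0.09. The ratio of Irf7 to Irf3 in TPM was 0.0489 and 0.0685 in Mock and 0.290 and 0.224 in uniSTING. Irf3 thus remained the more abundant of these 2 kinase-activated members in all 4 libraries.

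Irf5, which acts downstream of Toll-like receptors in myeloid cells (chromosome 6, 29526624 to 29541870), had 5.39 and 5.93 CPM in Mock and 6.46 and 6.39 CPM in uniSTING. The groups did not overlap, but the gap was small and the gene did not pass. The fitted log2 fold change was 0.18 (95% interval -0.12 to 0.48, edgeR adjusted p = 0.299), so a rise of up to 1.39-fold is within the interval.

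Irf8, a factor of myeloid and B lineage development (chromosome 8, 121463097 to 121483433), received 132 and 185 Mock counts, and 180 and 245 uniSTING counts. Its levels were 7.49 and 8.37 CPM against 9.61 and 9.84 CPM, without overlap. The log2 fold change of 0.29 (SE 0.11, edgeR adjusted p = 0.0489) was just past the threshold, and 8 of 12 alternative analyses lost the call (adjusted p from 0.0502 to 0.240). The call was lost without any 1 of the 4 libraries. Without Mock replicate 1 the value was 0.21 and without Mock replicate 2 it was 0.38. In the other direction, the call was kept at 0.39 with the length trend removed (edgeR adjusted p = 0.0143). It was also kept, at 0.45, with trends on length and GC content removed together (edgeR adjusted p = 0.00678). The step was 0.36 between the replicate 1 libraries and 0.23 between the replicate 2 libraries. Of the 8 myeloid markers, Lyz2, Fcer1g and Tyrobp had counts in the replicate 1 libraries and none in the replicate 2 libraries, whereas Cd14 and Csf1r were present in all 4. The part of transcripts from myeloid or other cell types in the Irf8 values was not tested.

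Irf4, a factor of plasma cells and activated lymphocytes (chromosome 13, 30933209 to 30950959), received 3 and 3 Mock counts, and 4 and 0 uniSTING counts. The ratio of summed counts was 0.607, with an exact 95% binomial interval of 0.126 to 2.56 that covers counting error only. At this depth no difference could be detected, and 3 counts correspond to 0.170 CPM in the library with the fewest counts.

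**Figure D2:**
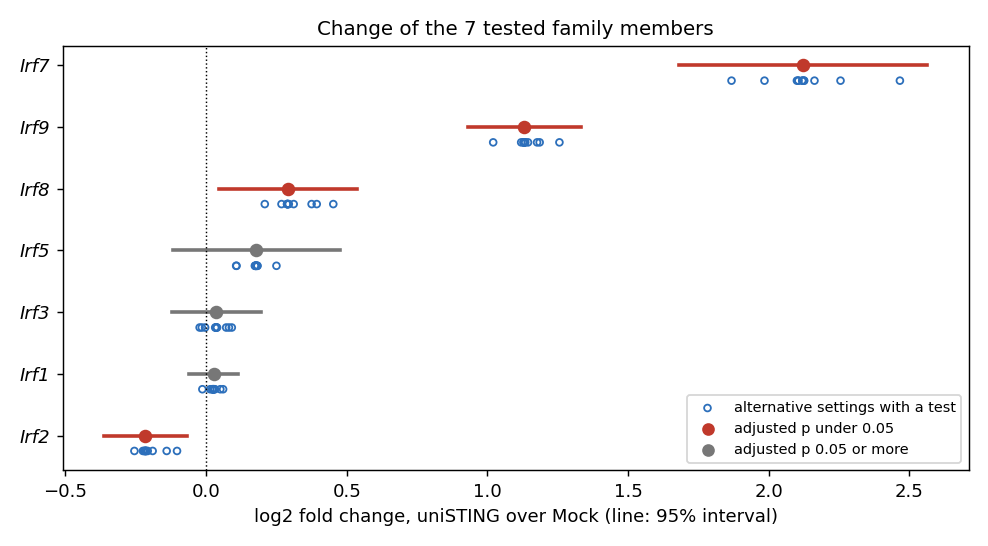
Log2 fold change of uniSTING over Mock for the 7 tested genes (filled points) with 95% intervals (lines), and the values under 12 alternative analyses (open circles). Irf7 and Irf9 lie at 2.12 and 1.13, with all their alternatives above 1, and the other 5 genes lie between -0.22 and 0.29.

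Promoter sequence is shown for the members that passed the test and for Irf1. RefSeq windows on GRCm38.p6, from 250 bases before to 50 bases after a start site, matched all 8 genes (11 windows). The lines give the part before the start site that lies outside the gene's UTRs in the GENCODE annotation of that build, 5′ to 3′ on the gene's strand. For Irf9 the upstream one of its 2 windows lies within an annotated UTR up to its start site and is not shown, so the line is the downstream window. Capitals mark motif matches on either strand.
Irf7, chr7:141266482-141266674, minus strand: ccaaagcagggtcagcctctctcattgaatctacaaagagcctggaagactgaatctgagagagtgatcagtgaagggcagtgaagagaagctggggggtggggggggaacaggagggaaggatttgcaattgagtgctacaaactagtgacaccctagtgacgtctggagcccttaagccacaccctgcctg
Irf9, chr14:55604329-55604578, plus strand: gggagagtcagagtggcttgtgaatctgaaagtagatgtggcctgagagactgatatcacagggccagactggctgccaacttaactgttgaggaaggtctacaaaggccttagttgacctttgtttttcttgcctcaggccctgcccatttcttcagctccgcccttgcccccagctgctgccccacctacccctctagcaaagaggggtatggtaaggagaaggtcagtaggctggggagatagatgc
Irf8, chr8:120736108-120736357, plus strand: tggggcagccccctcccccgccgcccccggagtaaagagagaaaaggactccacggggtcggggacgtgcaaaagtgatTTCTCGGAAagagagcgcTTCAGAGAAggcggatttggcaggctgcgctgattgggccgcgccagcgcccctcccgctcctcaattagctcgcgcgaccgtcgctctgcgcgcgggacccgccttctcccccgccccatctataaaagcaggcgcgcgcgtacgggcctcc
Irf1, chr11:53769764-53770013, plus strand: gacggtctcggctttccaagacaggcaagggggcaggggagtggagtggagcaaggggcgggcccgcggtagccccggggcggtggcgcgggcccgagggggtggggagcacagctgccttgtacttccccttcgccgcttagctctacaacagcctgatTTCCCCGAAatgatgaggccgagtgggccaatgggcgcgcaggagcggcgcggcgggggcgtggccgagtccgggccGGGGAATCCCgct
Irf2, chr8:46739495-46739731, plus strand: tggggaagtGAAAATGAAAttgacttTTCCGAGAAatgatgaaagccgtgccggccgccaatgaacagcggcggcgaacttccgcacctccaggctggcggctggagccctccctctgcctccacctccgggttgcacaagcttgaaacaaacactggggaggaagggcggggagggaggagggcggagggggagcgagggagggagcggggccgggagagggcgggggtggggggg
The motifs searched were the ISRE core (GAAA, any 2 bases, GAAA), the STAT-binding GAS element TTCNNNGAA and the kappaB consensus of NF-kB. Of 32851 such windows, 3.44% held the ISRE core, 8.30% the GAS element and 4.51% the kappaB consensus. The Irf1 window held GAS (TTCCCCGAA, bases -90 to -82 from the start site) and kappaB (GGGGAATCCC, -13 to -4) matches. The Irf2 window held an ISRE core (GAAAATGAAA, -241 to -232), a GAS match (TTCCGAGAA, -224 to -216) and a kappaB match (GGGGATTTCC, -17 to -8), which runs past the end of the part shown and is left in lower case there. The upstream Irf8 window held 2 GAS matches, TTCTCGGAA and TTCAGAGAA. None of these 3 motifs was matched in the Irf7 window or in either Irf9 window, nor in those of Irf3, Irf4 and Irf5, which says only that these strings are not in these windows. Irf1, Irf2 and Irf8, whose windows held matches, had log2 fold changes of 0.03, -0.22 and 0.29. A match is a string of letters and not a measured site.

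Levels of different genes can be compared only per length. In Mock the order by TPM was Irf1 (55.9 ± 1.71), Irf3 (27.5 ± 1.38), Irf2 (14.2 ± 0.531), Irf5 (5.73 and 6.28 in the 2 libraries), Irf9 (5.32 ± 0.584), Irf8 (3.46 ± 0.264), Irf7 (1.63 ± 0.463) and Irf4 (0.0961 ± 0.0156), each with SD and n = 2 libraries. Only the neighbours Irf5 and Irf9 had overlapping ranges there. In uniSTING, Irf9 (10.7 ± 0.0841 TPM) stood 4th, just under Irf2 (11.2 ± 0.0488 TPM). Irf7 (6.62 ± 0.908 TPM) moved past Irf8 and overlapped Irf5 (6.24 ± 0.0471 TPM). The order of the middle members depends on the length used. With the longest coding transcript of each gene in place of all annotated exons, Irf9, Irf8 and Irf5 took ranks 4, 5 and 6 in Mock, with neighbouring ranges that overlapped. Irf1, Irf3, Irf2, Irf7 and Irf4 kept ranks 1, 2, 3, 7 and 8.

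The summed TPM of the 8 genes changed little, at 111 and 117 (Mock) against 117 and 117 (uniSTING), while its make-up shifted. TPM divides by the length-weighted sum over all genes, so the scales of TPM and CPM can part between groups. The mean of Irf1 was 72.2 CPM in Mock and 73.6 CPM in uniSTING, but 55.9 and 52.3 TPM. The flat sum is therefore a statement on the TPM scale and does not carry over to CPM. Irf7 made up 1.17% and 1.67% of the sum in Mock and 6.23% and 5.10% in uniSTING. Irf9 made up 4.42% and 4.90% in Mock and 9.16% and 9.23% in uniSTING. The share of Irf1 was 49.2% and 48.8% in Mock and 44.8% and 44.7% in uniSTING. The share of Irf1 was thus lower in both uniSTING libraries, beside CPM levels that overlapped between the groups. Each share is a ratio within 1 library, so the sum over all genes cancels in it. The shares of a library add up to a fixed total, so the higher shares of Irf7 and Irf9 go with lower shares among the other members.

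**Figure D3:**
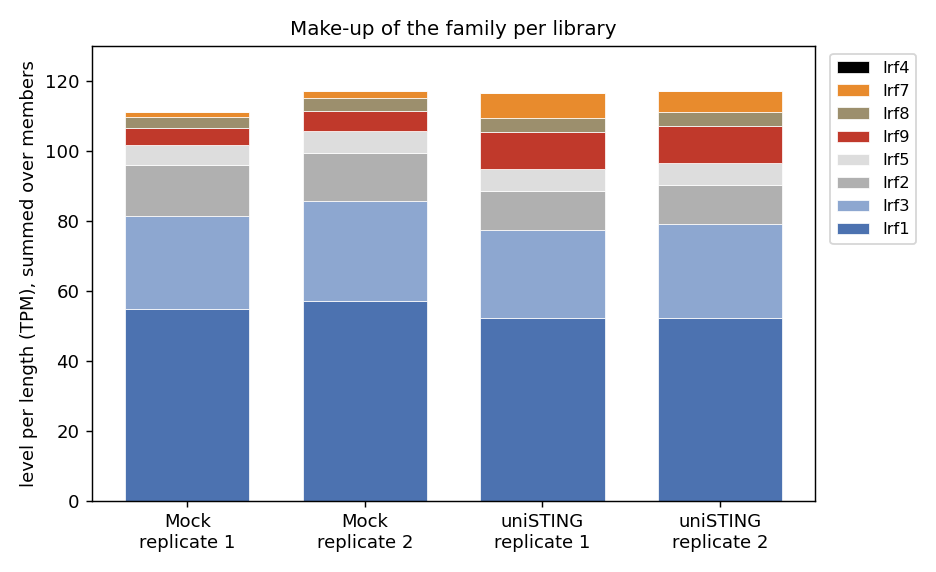
Stacked level per length in TPM of the 8 genes in each library. The total lies between 111 and 117 TPM in all 4 bars, the Irf9 and Irf7 segments are taller in the uniSTING bars, and Irf1 is the tallest segment throughout.

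Exons of 5 of the 8 members overlap those of another gene, and counting was without strand, so reads in the shared bases could not be assigned to 1 gene. The shared part was 1.19% of the Irf7 exon length (with Phrf1), 2.28% for Irf9 (with Rnf31), 2.56% for Irf3 (with Bcl2l12), 14.1% for Irf5 (with Tnpo3) and 20.0% for Irf1 (with the predicted gene Gm17334). The neighbours of the risers did not rise. Phrf1 had 99.1 ± 0.0864 CPM in Mock and 76.3 ± 1.42 CPM in uniSTING (SD, n = 2 libraries per group; log2 fold change -0.38, SE 0.03). Rnf31 had 23.4 ± 0.614 and 19.8 ± 0.125 CPM (log2 fold change -0.24, SE 0.07). The annotated exons of Irf7 fill its whole span of 3776 bases (100% of it) so that its counts do not separate spliced from unspliced RNA.

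Above the IRFs in the pathway, a list of 21 sensors, adaptors and kinases was tested in full, with 5 higher, 4 lower and 12 not called, and a median log2 fold change of 0.04. The median over all genes was 0.006, and with 24.9% of all genes higher and 25.4% lower these counts are near or below the share of genes at large. The cytosolic RNA sensor genes Ddx58, Ifih1 and Dhx58 rose 1.45-fold, 1.46-fold and 2.15-fold. Traf3, an adaptor of the TBK1 pathway, fell by 0.38 on the log2 scale. With the length trend removed, 9 of the 21 genes were higher, against 3039 of 12972 genes at large. In that setting the count of genes higher was above the share of genes at large. Among 12 genes for interferon receptors, Janus kinases and STATs, 2 were higher, 3 lower and 7 not called (median 0.04), again near or below the 24.9% and 25.4% of all genes. Stat2 was among those that rose, and Jak1 fell 1.20-fold.

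Of 12 genes for DNA-binding partners and coactivators of IRFs, 9 were tested, with 4 higher and 5 lower and a median of -0.09, beside 50.2% of all genes called in either direction. The lymphoid and myeloid partners Spi1, Spib and Batf, which pair with IRF4 and IRF8, had at most 5 counts in any library and were not tested. Batf3, a further partner of IRF4 and IRF8, had 18 and 23 Mock counts, and 39 and 73 uniSTING counts, without overlap. It rose 2.44-fold (log2 fold change 1.29, SE 0.29, edgeR adjusted p = 0.00397), the widest rise among the 9 tested genes of the list, and the call was lost without uniSTING replicate 2 (adjusted p = 0.0749). Crebbp and Ep300, the acetyltransferase coactivators that bind activated IRF3, fell 1.76-fold and 1.58-fold. Both are long genes, and with the length trend removed they still fell, by 0.54 and 0.37 on the log2 scale (adjusted p = 7.27e-05 and 3.10e-04). Of 11 corepressors and inhibitors of IRFs, 4 were higher, 4 lower and 3 not called (median -0.02), where 24.9% of all genes were higher and 25.4% lower. Eif4ebp2, a translational repressor reported to limit Irf7 mRNA translation, fell by 0.58 on the log2 scale. Oasl1, another reported inhibitor of Irf7 translation and itself an interferon-stimulated gene, rose 2.02-fold.

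Below the IRFs, 3 lists of target genes, chosen with earlier results of these data known, differed in how many members rose. Of 26 targets of ISGF3, 25 were tested, with 22 higher, 1 lower and 2 not called, where 24.9% of all genes were higher. Their median log2 fold change was 1.27, and 15 rose at least 2-fold, as did 2.00% of all genes tested. Isg15, a ubiquitin-like modifier, rose 2.41-fold, and Ifi44 rose 7.40-fold. The untested gene of the list, Mx1, was seen with 1 Mock count and 27 uniSTING counts (ratio 24.6, 95% counting interval 4.05 to 1007). Oas2, with 35 uniSTING counts, had 0 counts in Mock, which is at least 10.6-fold higher when the Mock group is set at a floor of 3 counts in all, and the list median with Oas2 at that bound was again 1.27. Of 13 direct targets of IRF3 and IRF7, 8 were tested (median 1.63). Of these, 7 were higher, 0 lower and 1 not called, where 24.9% of all genes were higher. The 1 that missed the threshold was Tnfsf10 (log2 fold change 1.20, SE 0.56, edgeR adjusted p = 0.0982). Ifit2, 1 of the 7, was just past it at 1.15-fold (edgeR adjusted p = 0.0493). With DESeq2 or the length trend removed, 6 genes of the list were higher in place of 7. Cxcl10, a chemokine for T cells, rose 5.21-fold. The list shares 4 genes with the ISGF3 list, and its interferon genes Ifna4, Ifnl2 and Ifnl3 were at 0 counts in all libraries. Ifnb1 was seen with 3 Mock counts and 12 uniSTING counts, and the ratio was 3.64 with a 95% counting interval of 0.983 to 20.1 that includes no difference. Of 24 targets of IRF1, 22 were tested, with 11 higher, 3 lower and 8 not called, and a median of 0.23, where 24.9% of all genes were higher. The guanylate-binding protein genes Gbp3 and Gbp7 rose 2.00-fold and 2.04-fold, and Ptgs2, which encodes cyclooxygenase 2, rose 1.39-fold. With DESeq2 or the length trend removed, 7 of the 22 IRF1 targets were higher in place of 11. Fewer genes at large were higher there too. They numbered 2322 of 13069 with DESeq2 and 3039 of 12972 with the length trend removed, against 3225 of 12972 in the main fit. Among the target genes counted as higher, Oas2, Ifit3b, Mx2 and Cxcl11 had at most 4 counts in either Mock library. They passed the low count filter through the uniSTING libraries alone. Genes this low in Mock could be tested only where uniSTING was high, so the counts of higher genes and the medians include them by selection. No test compared the lists with each other.

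**Figure D4:**
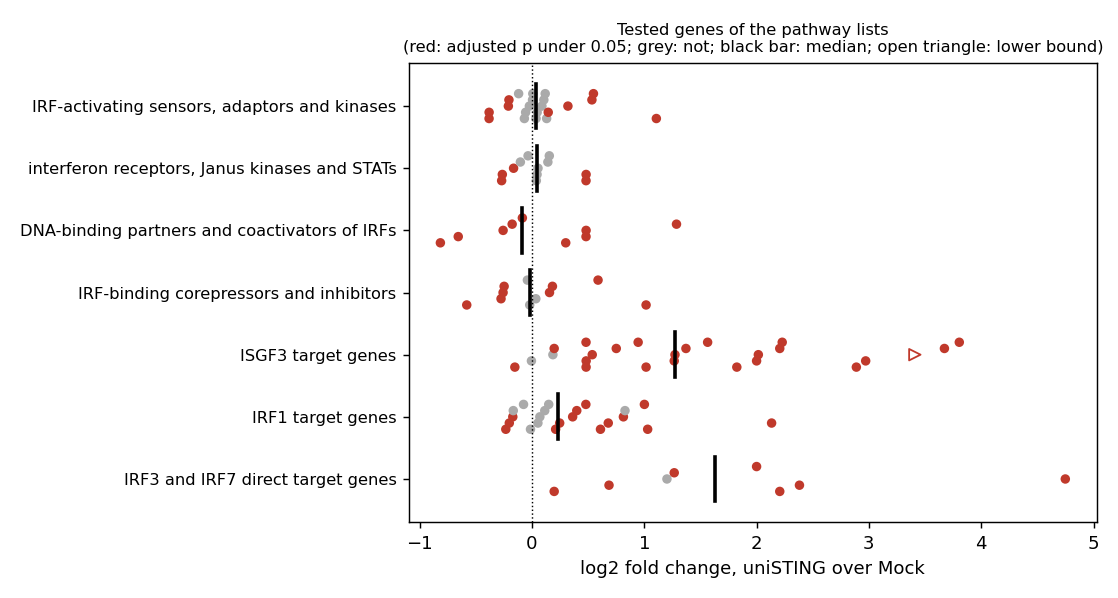
Log2 fold change of uniSTING over Mock for the tested genes of 7 pathway lists (points, red where the adjusted p was under 0.05) with the median of each list (black bars) and the lower bound of Oas2 (open triangle). The target lists of ISGF3 and of IRF3 and IRF7 have medians of 1.27 and 1.63, and the upstream lists have medians near 0.

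Likeness of pattern was measured as the Euclidean distance over the 4 libraries between log2 CPM values centred on each gene's mean, among 10808 genes of at least 1 CPM. The distance includes the difference between the groups, so like fold changes follow from the choice and are not a result. The genes nearest to Irf7 were Nos2 (distance 0.27), Smtnl2 (0.48) and Oas3 (0.52), with log2 fold changes of 2.13, 1.97 and 2.23. Nos2 had 0.284 and 0.588 CPM in Mock (5 and 13 counts) and 2.35 and 1.65 CPM in uniSTING (44 and 41 counts). It shared with Irf7 the lower Mock and the higher uniSTING value in replicate 1, on these few counts. The genes nearest to Irf9 were Car9 (distance 0.04), Tmem51 (0.04) and Lrrc8e (0.06), with log2 fold changes of 1.13, 1.19 and 1.28. Of these 6 genes, Nos2 is in the IRF1 target list and Oas3 in the ISGF3 target list.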

How the data were processed

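RNA from 4 libraries was measured. The authors deposited raw counts, 1 table per library. Per the file headers, read pairs were counted by featureCounts 2.0.1 on the exons of each gene (Ensembl 103, GRCm39), ignoring strand and using uniquely mapped reads, so copies of near-identical sequence lose reads. HISAT2 did the alignment, per the submitters' processing notes. The exon length deposited beside the counts was used for TPM.

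Symbols came from an identifier table that matched 52093 of the 53647 genes. The test was edgeR 4.0.16 (R 4.3.3) with TMM scaling, its default filter by group (count of at least 10, total of at least 15), glmQLFit and glmQLFTest on the group, two-sided, with Benjamini-Hochberg adjustment over 12972 genes and a threshold of 0.05. SE and 95% intervals derive from the quasi-likelihood F statistic and are approximate. CPM is the count over the TMM-scaled library size. Every tested member had at least 10 counts in each library. The test was checked on simulated counts.

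The members and gene lists were chosen with earlier results of these data known. Named genes outside the family are among the 4 of smallest p in each list, those whose exons overlap a member, and the 3 nearest in pattern to each member changed at least 1.5-fold (no predicted or clone names, mean CPM of at least 1). Genes named for low or missing counts, marker genes, Batf3, Tnfsf10 and Stat2 were chosen after their values were seen. Alternatives were DESeq2's size factors, 2 other filters, DESeq2 1.42.0, limma-voom (limma 3.58.1), a replicate block, leaving out each library and removal of a length trend (lowess, span 0.3). Chosen after seeing the data were length and GC trends removed together, the replicate 2 libraries alone and the longest coding transcript as length. Some genes of the family and of the lists are not reported here.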

Additional observations from a re-analysis of the deposited data

How the results depend on the processing

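Irf7 and Irf9 kept their direction and stayed past the threshold in all 12 alternative analyses with a test, with log2 fold changes from 1.87 to 2.47 and from 1.02 to 1.26. Irf1, Irf3 and Irf5 passed in none of the 12. The replicate 2 libraries alone, without a test, gave 1.74 for Irf7, below that range, and 1.04 for Irf9, and for Irf1 the replicate 1 step was 0.06 and the replicate 2 step -0.0042. Irf2 lost its call with DESeq2 (-0.22), with the length trend removed (-0.10) and with length and GC trends removed (-0.14), and over the fits leaving out 1 library ranged from -0.25 to -0.19. Irf8 lost its call with DESeq2's size factors (0.29), no filter (0.29), DESeq2 (0.29) and limma-voom (0.29), and ranged from 0.21 to 0.38 over the fits leaving out 1 library, where a lone library is assumed to vary like the others. Irf8 kept its call at 0.39 with the length trend removed and at 0.45 with length and GC trends removed. Leaving out any 1 library, 2 members were higher in place of 3. The number of members lower was 0 with DESeq2 and with either trend removed, and 0 to 1 leaving out 1 library.

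Of the list counts, partners lower were 3 with the length trend removed and 2 with length and GC trends removed, and partners higher were 2 to 4 leaving out 1 library. Among receptors and STATs, 1 was higher and 1 lower with DESeq2 and 1 lower with the length trend removed, and 1 to 2 were higher and 1 to 4 lower leaving out 1 library. Sensors higher were 9 with the length trend removed, and sensors lower were 2 with DESeq2, 2 with length and GC trends removed and 2 to 3 leaving out 1 library. Corepressors lower were 2 with length and GC trends removed, and corepressors higher 1 to 4 leaving out 1 library. IRF1 targets higher were 7 with DESeq2, 7 with the length trend removed and 7 to 10 leaving out 1 library. ISGF3 targets lower were 0 with DESeq2 and with either trend removed, and 0 to 1 leaving out 1 library. Genes higher at least 2-fold numbered 259, and 162 with DESeq2. Over all genes tested, 2322 were higher and 2575 lower with DESeq2. With the length trend removed these were 3039 and 2881.

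Of genes outside the family, B2m, an IRF1 target that rose by 0.25, lost its rise with the length trend removed (-0.00896, edgeR adjusted p = 0.784). It reversed with length and GC trends removed (-0.14). Tnpo3, at -0.05 without passing, had 0.21 and 0.15 in the same 2 settings. The cause of these changes was not tested. The labels number preparations alike in both groups without saying that a number marks a shared batch. Differences between replicates 1 and 2 correlated across genes between the groups (r = 0.53 over 7970 genes), and with the replicate block 3 members were higher and 1 lower, 3374 genes higher and 3403 lower, so that it changed no member's call. Depth limits Irf4, and to a lesser degree Irf5, Irf8 and the Mock level of Irf7, which rests on 28 and 53 counts.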
